A study of Mus musculus with 8 samples.

Results

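Glutathione peroxidases and thioredoxin reductases were followed through light and heavy polysomes of the mouse main olfactory epithelium, the tissue in the nose that holds the olfactory sensory neurons. The set was chosen by gene symbol and held 10 of the 21765 rows of the table: Gpx1, Gpx2, Gpx3, Gpx4, Gpx6, Gpx7, Gpx8, Txnrd1, Txnrd2 and Txnrd3. All 10 passed the minimum mean level of 1 TPM (transcripts per 1000000) and were among the 16097 genes tested. Gpx5, a further glutathione peroxidase at 1.60 to 3.87 TPM, was not in the set. TPM scales reads by transcript length and library size, so levels can be compared between genes.

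Tissue was placed in cycloheximide (100 µg/mL), which arrests ribosomes on mRNA, and its lysate was separated on a sucrose gradient into about 42 fractions. Fractions 27 to 34 were pooled as early polysomes and fractions 35 to 42 as late polysomes, which lie deeper in the gradient. Wild-type (WT) mice lacked Cre and had loxP-flanked Mex3a on both alleles or on 1 (flox/flox or flox/+). In conditional knockout (cKO) mice Mex3a was flox/flox and a Cre was present. Each genotype gave 2 lysates, and each lysate gave 1 early and 1 late library, so the 4 groups have 2 libraries each. The labels give no age and do not say how many animals made a lysate, so p-values measure the spread between these libraries only. The labels of these libraries name whole tissue lysates and no cell sorting, although the series' design text speaks of sorted cells. In bulk samples fewer cells of a type and less RNA per cell cannot be told apart.

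Most glutathione peroxidases reduce hydrogen peroxide or lipid peroxides with glutathione, and thioredoxin reductases use NADPH to keep thioredoxin reduced. Many of these enzymes carry selenocysteine at the active site, an amino acid inserted at a UGA codon that otherwise ends translation. Its insertion needs a hairpin in the 3′ part of the mRNA, a dedicated tRNA and specialised protein factors, while some relatives carry a cysteine in its place. The number of ribosomes on an mRNA usually grows with the length of its coding sequence, so long coding sequences tend to sediment further.

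The codon at the active site separates the members, and it is shown for each with its neighbouring codons. Each line gives 30 bases of the coding strand, 5′ to 3′, with the selenocysteine TGA or the cysteine codon at the aligned position in capitals.
Gpx1: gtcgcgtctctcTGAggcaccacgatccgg
Gpx2: gtggcgtcactcTGAggaacaactacccgg
Gpx3: gtagccagctacTGAggtctgacagaccaa
Gpx4: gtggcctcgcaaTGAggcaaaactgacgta
Gpx6: gtggcatccttcTGTggcctgacagctacg
Gpx7: gtagctagcgaaTGTggcttcacagaccag
Gpx8: gtggctagtgacTGCcgcttcacagacaag
Txnrd1: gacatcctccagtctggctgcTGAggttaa
Txnrd2: gagcctactgtgactggttgcTGAggctaa
Txnrd3: gacattactcagaaaggctgcTGAggctag

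In these sequences 7 members had a selenocysteine codon (Gpx1 to Gpx4 and Txnrd1 to Txnrd3), and 3 had a cysteine codon (Gpx6, Gpx7 and Gpx8). The peroxidase codon lay early in the reading frame, at codon 47 of 201 in Gpx1, 40 of 190 in Gpx2, 73 of 226 in Gpx3, 73 of 197 in Gpx4, 73 of 221 in Gpx6, 56 of 186 in Gpx7 and 79 of 209 in Gpx8. In the reductases the TGA was the next to last codon, number 498 of 499 in Txnrd1, 526 of 527 in Txnrd2 and 614 of 615 in Txnrd3, and the line ends with the stop codon. Over the 30 bases Gpx1 and Gpx2 shared 24, and Gpx7 and Gpx8 shared 24. Gpx6 shared at most 18 with any other peroxidase of the set, which was Gpx3, and Gpx5 was not compared.

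On GRCm38 the plus-strand windows were chr9:108339439-108339468 in exon 1 of 2 of Gpx1, chr11:54907244-54907273 in exon 2 of 5 of Gpx3, chr10:80054725-80054754 in exon 3 of 7 of Gpx4 and chr13:21313765-21313794 in exon 2 of 5 of Gpx6. The minus-strand windows were chr12:76795241-76795270 in exon 1 of 2 of Gpx2, chr4:108403415-108403444 in exon 2 of 3 of Gpx7 and chr13:113045646-113045675 in exon 2 of 3 of Gpx8. The reductase windows lay on the plus strand at chr10:82896016-82896045 in exon 14 of 14 of Txnrd1, chr16:18477751-18477780 in exon 17 of 18 of Txnrd2 and chr6:89674768-89674797 in exon 16 of 16 of Txnrd3. All are coding sequence of 1 annotated transcript per gene.

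One library needs a caution before the results. WT early replicate 2 is WT by its title but carries the cKO genotype tag. Mex3a, which encodes an RNA-binding protein, stood at 116 TPM in this library, beside 93.2 to 97.4 TPM in the other 3 WT libraries and 11.1 to 19.8 TPM in the 4 cKO libraries. The library was kept as WT, and results that rest on it are also given without it. Of the tissue's defining genes, the 7 markers of mature olfactory neurons, Omp among them, were all present and summed to 5150 to 7239 TPM per library. Reads inferred from the TPM steps came to 7776792 to 12771079 per library, lowest in cKO late replicate 2. Gpx6 rested on 4083 to 8230 reads per library, Gpx2 on 10 to 83 and Txnrd2 on 58 to 121, so the last 2 carry the largest counting error.

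The 8 libraries hold only the 2 polysome pools and no unfractionated RNA, so levels are those within the pools. Gpx6 was the most abundant member there, at 673 to 1839 TPM, and its range lay above that of every other member. Gpx3 followed at 193 to 574 TPM, then Gpx1 at 130 to 374, Txnrd1 at 165 to 260 and Gpx4 at 93.3 to 280.4 TPM, and these 4 ranges overlapped one another. Gpx8 spanned 60.7 to 97.7 TPM, which reached into the range of Gpx4, and Gpx7 spanned 23.4 to 50.9 TPM, clear of both its neighbours. Txnrd3 (8.20 to 21.3 TPM), Txnrd2 (6.94 to 16.5 TPM) and Gpx2 (3.48 to 16.4 TPM) were lowest and overlapped. The order depended on the fraction. Gpx1 lay above Txnrd1 in all 4 early libraries and below it in all 4 late libraries.

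**Figure D1:**
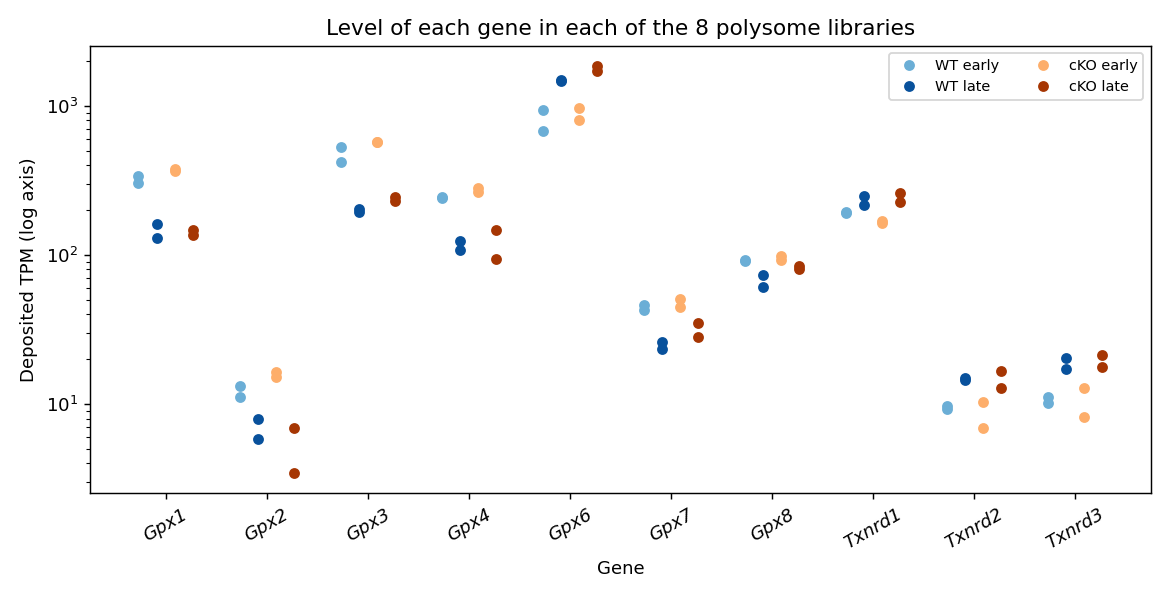
Deposited TPM of each member (log axis) in each of the 8 libraries, with 1 point per library, colours for genotype and lighter shades for early polysomes. Gpx1 to Gpx4, Gpx7 and Gpx8 lie lower in late than in early polysomes, while Gpx6 and the 3 reductases lie higher.

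Between late and early polysomes the family split. Averaged over genotypes, all 10 members passed the test (limma, Benjamini-Hochberg adjusted over all genes tested, threshold 0.05), with 4 higher and 6 lower in late polysomes. This comparison called 68.9% of all genes tested, 34.3% higher and 34.6% lower, so the count itself says little about the members. The median member difference was -0.63 on the log2(scaled TPM + 1) scale, beside -0.01 over all genes tested. The early and late libraries of a member did not overlap for any of the 10, 4 above and 6 below, where 31.5% of all genes lay above and 30.9% below without overlap. Folds below are on the same scale, which understates changes of low genes. Scaling holds the typical gene near a difference of 0. Higher, lower, rose and fell are thus relative to the other mRNAs of a library and not absolute amounts.

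The 4 selenocysteine peroxidases fell together and by similar amounts. Gpx1, the peroxidase of cytosol and mitochondria, stood at 304 and 337 TPM in WT early libraries and 162 and 129.8 TPM in WT late libraries. In cKO it stood at 362 and 374 TPM early and 147 and 136 TPM late. Every late library thus lay below every early one, and the averaged log2 difference was -1.37 (SE 0.09), or 2.59-fold lower in late polysomes, with an adjusted p of 1.88e-05 by limma.

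Gpx3, which encodes the secreted peroxidase of plasma and extracellular fluid, gave 422 and 529.5 TPM in WT early and 193 and 202 TPM in WT late libraries. Its cKO values were 571 and 574 TPM early and 245 and 228 TPM late. The averaged difference was -1.38 (SE 0.09; limma adjusted p = 1.88e-05), the same as that of Gpx1 within their errors.

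Gpx4, the enzyme that reduces lipid peroxides within membranes and protects cells from ferroptosis, stood at 239 and 246 TPM in WT early and 124 and 108 TPM in WT late libraries. In cKO it gave 280.4 and 264 TPM early and 148 and 93.3 TPM late, and the 2 late replicates differed more than any other pair of replicates of this gene. The averaged difference was -1.25 (SE 0.14; limma adjusted p = 9.66e-05).

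Gpx2, an epithelial peroxidase best known from the gut, had the lowest mean level of the members. It lay above Txnrd2 and Txnrd3 in every early library and below both in every late library. Gpx2 stood at 11.2 and 13.3 TPM in WT early, 7.98 and 5.80 TPM in WT late, 16.4 and 15.2 TPM in cKO early and 6.91 and 3.48 TPM in cKO late libraries. The averaged difference of -1.23 passed the test (SE 0.19; limma adjusted p = 0.000565). In WT alone the difference was -0.85 (adjusted p = 0.0284), and without WT early replicate 2 it was -0.73 and did not pass (adjusted p = 0.142).

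Gpx6 went the other way. This member, known in rodents for its expression in the olfactory epithelium, carries TGT, a cysteine codon, where Gpx3 carries TGA. It stood at 940.4 and 673 TPM in WT early libraries and 1453 and 1494 TPM in WT late libraries. In cKO it stood at 965 and 803 TPM early and 1696 and 1839 TPM late. All 4 late libraries lay above all 4 early ones, and the averaged difference was 0.83 (SE 0.12), or 1.78-fold higher in late polysomes (limma adjusted p = 0.000395).

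The call for Gpx6 in WT alone rests on the library with the contradicting tag, whose 673 TPM was the lowest Gpx6 value. The WT difference was 0.78 (SE 0.17; limma adjusted p = 0.00578), and without that library 0.55 (SE 0.18; adjusted p = 0.0513). In cKO the difference was 0.88 (SE 0.17; adjusted p = 0.0029), and averaged over genotypes it was 0.71 without that library (adjusted p = 0.00164). Marker genes of several cell types were also higher in late polysomes, in a comparison that called 34.3% of all genes higher. Of the sustentacular markers, which mark the supporting cells of the epithelium, 6 of 7 rose and Cbr2 fell, and their summed level was 7500 to 8384 TPM in WT early, 12946 to 13430 in WT late, 6848 to 8534 in cKO early and 14155 to 14707 in cKO late libraries. Of the gland markers 6 of 7 rose and 0 fell, with sums of 3086 to 4602, 6679 to 7707, 3219 to 4454 and 7623 to 8599 TPM in the same order. No gene of either list was at 0 in both libraries of a group. Markers of mature neurons (6 of 7), globose basal cells (4 of 6), horizontal basal cells (3 of 4), microvillous cells (3 of 4) and ensheathing glia (3 of 5) were called higher too. So were 1 of 5 immature neuron, 1 of 5 neutrophil, 1 of 4 macrophage and 0 of 3 respiratory markers. Called lower were 4 of 5 neutrophil, 3 of 5 immature neuron, 1 of 7 mature neuron, 1 of 5 ensheathing glia and 1 of 3 respiratory markers. No globose basal, horizontal basal, microvillous or macrophage marker was called lower. The mature neuron sum was 5495 to 7239 TPM in WT early and 5503 to 6167 in WT late libraries. In cKO it was 6033 to 6110 TPM early and 5150 to 5509 TPM late. The part of these cells in the Gpx6 result was not tested.

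Gpx7 and Gpx8, cysteine peroxidases of the endoplasmic reticulum, fell by less than the selenocysteine peroxidases in the average over genotypes. In WT alone Gpx7 fell by 0.93 and Gpx2 by 0.85, and no difference between members was tested. Gpx7 stood at 42.5 and 46.3 TPM in WT early, 25.9 and 23.4 TPM in WT late, 44.7 and 50.9 TPM in cKO early and 28.1 and 35.1 TPM in cKO late libraries. Its averaged difference was -0.82 (SE 0.09; limma adjusted p = 0.0001). Gpx8, which spans the membrane of the endoplasmic reticulum, stood at 91.4 and 92.8 TPM in WT early and 60.7 and 73.5 TPM in WT late libraries. In cKO it gave 97.7 and 92.0 TPM early and 84.7 and 81.0 TPM late. The averaged difference was -0.44 (SE 0.08; limma adjusted p = 0.000955), the smallest of the 6 that fell. In cKO alone it was -0.32 with an adjusted p of 0.033, which did not pass without WT early replicate 2 (adjusted p = 0.0508) or on TPM as deposited, where the difference was -0.19 (adjusted p = 0.165).

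**Figure D2:**
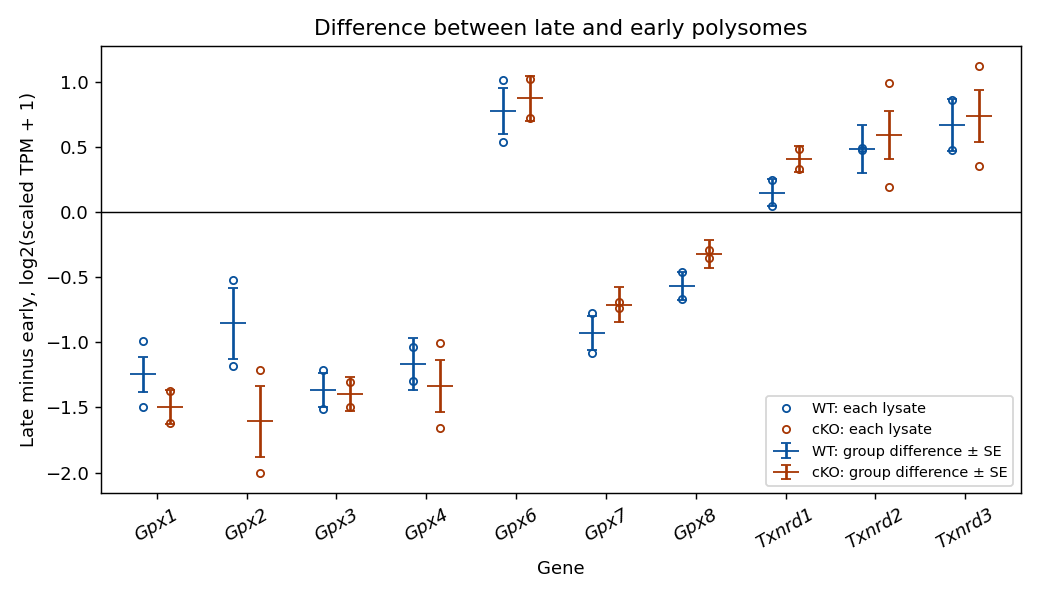
Late minus early difference in log2(scaled TPM + 1) for each member, with circles for each lysate and bars for the group difference ± SE in WT (blue) and cKO (orange). Gpx1 to Gpx4 averaged between -1.38 and -1.23, Gpx7 and Gpx8 stood at -0.82 and -0.44, and Gpx6 and the reductases lie above 0 in every lysate.

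The 3 thioredoxin reductases rose in late polysomes. Txnrd1, the cytosolic reductase, stood at 195 and 190.3 TPM in WT early, 215 and 248 TPM in WT late, 169.9 and 165 TPM in cKO early and 228 and 260.2 TPM in cKO late libraries. The averaged difference was 0.28 (SE 0.07; limma adjusted p = 0.00744), the smallest among the members. It was 0.41 in cKO (adjusted p = 0.00832), while the WT difference of 0.15 did not pass (adjusted p = 0.234). The 2 genotypes were not shown to differ in this, since the difference between them was 0.26 with a 95% interval from -0.07 to 0.59.

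Txnrd2, the mitochondrial reductase, gave 9.74 and 9.29 TPM in WT early, 15.02 and 14.6 TPM in WT late, 10.4 and 6.94 TPM in cKO early and 12.8 and 16.5 TPM in cKO late libraries. The averaged difference was 0.54 (SE 0.13; limma adjusted p = 0.00588). Its WT difference of 0.49 had an adjusted p of 0.0532, just above the threshold. Txnrd3, which joins a glutaredoxin domain to a thioredoxin reductase, gave 10.1 and 11.1 TPM in WT early, 20.4 and 17.3 TPM in WT late, 12.8 and 8.20 TPM in cKO early and 17.7 and 21.3 TPM in cKO late libraries. The averaged difference was 0.71 (SE 0.14; limma adjusted p = 0.00194), and every lysate showed the same direction for both genes. In WT alone Txnrd3 differed by 0.67 (adjusted p = 0.0193), or by 0.74 without WT early replicate 2 (adjusted p = 0.0593).

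By genotype, 8 members passed the test between late and early polysomes in WT, where 54.8% of all genes did, and 10 passed in cKO, where 58.1% did. The 2 that did not pass in WT were Txnrd1 and Txnrd2. Without WT early replicate 2, 5 members passed in WT (Gpx1, Gpx3, Gpx4, Gpx7 and Gpx8), 9 in cKO and 10 in the average, and the share of all genes called in these fits was 36.1%, 56.4% and 62.0%. Leaving out each library in turn gave 5 to 9 members in WT and 7 to 10 in cKO. Gpx2 (adjusted p = 0.0566) and Txnrd3 (0.0899) did not pass in WT without WT early replicate 1, Gpx2 not without WT late replicate 2 (0.163) and Txnrd3 not without WT late replicate 1 (0.112). In cKO Gpx8, Txnrd2 and Txnrd3 did not pass without cKO early replicate 2 (adjusted p = 0.0767, 0.169 and 0.0799) or without cKO late replicate 2 (0.150, 0.132 and 0.0680), and Gpx8 not without cKO early replicate 1 (0.116). All 10 members kept their sign in WT and in cKO in each of these fits, all with limma.

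The make-up of peroxidase mRNA differed between fractions, while its summed level overlapped over all 8 libraries. The 7 peroxidases summed to 1938 to 2337 TPM in early and 2027 to 2416 TPM in late libraries. On deposited TPM the sum was higher in late than in early polysomes in 3 of 4 lysates. Both cKO late sums (2356 and 2416 TPM) lay above both cKO early sums (2337 and 2173 TPM). These sums leave out the library factors, which were 0.931 to 0.986 in early and 1.01 to 1.06 in late libraries. Dividing by the factors lowers late sums relative to early ones, so no direction of the sum is read. Gpx6 made up 34.7% to 45.9% of this sum in early libraries and 71.7% to 76.1% in late libraries. Gpx1 to Gpx4 together made up 47.6% to 58.1% of it early and 19.1% to 24.0% late. Of the reductases Txnrd1 supplied 85.8% to 91.6% of the summed TPM in all 8 libraries, and the sum was 179.9 to 215 TPM early and 250.2 to 298 TPM late.

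**Figure D3:**
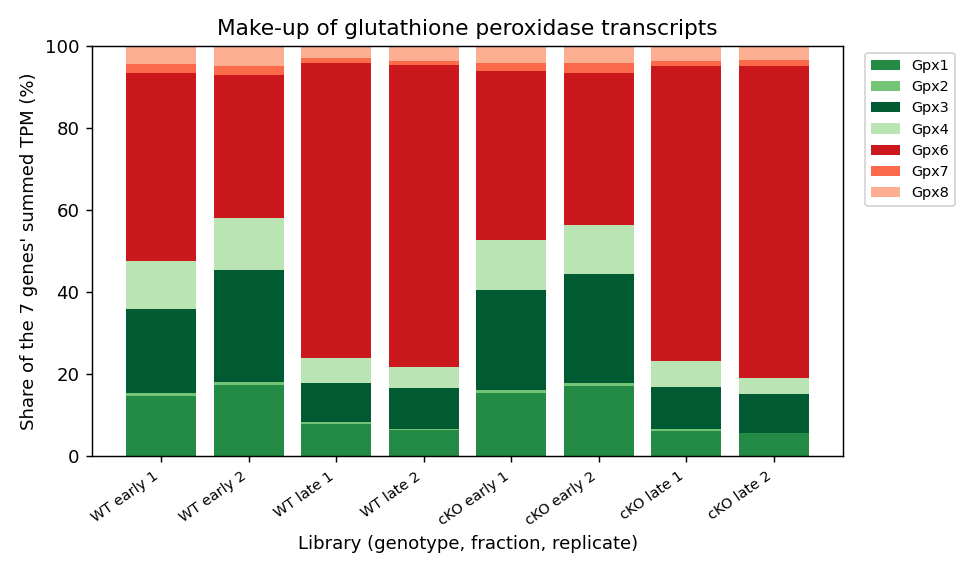
Share of the summed TPM of the 7 peroxidases (vertical axis, percent) taken by each gene in each of the 8 libraries, with selenocysteine peroxidases in green and cysteine peroxidases in red. The Gpx6 segment spans 34.7% to 45.9% of the bar in early libraries and 71.7% to 76.1% in late libraries.

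The members were then set beside genes of similar coding length. The length used was that of the longest annotated coding sequence, which for Gpx4 (759 nt) and Txnrd1 (1839 nt) is not the transcript whose codons are numbered above (591 and 1497 nt). The 14687 tested genes with an annotated coding sequence were split by this length into 10 bins of nearly equal size, and the median late minus early difference rose from -1.12 in the shortest bin to 0.50 in the longest. All 7 peroxidases (558 to 759 nt) fell in bin 2, which spans 555 to 786 nt, holds 1469 genes and has a median of -0.63 with quartiles of -0.91 and -0.27. From this median Gpx1 differed by -0.74, Gpx3 by -0.75, Gpx4 by -0.62 and Gpx2 by -0.60, all below the lower quartile. Gpx7 differed from it by -0.19 and Gpx8 by 0.19, both between the quartiles. The match is coarse, since the medians of the next shorter and next longer bins were -1.12 and -0.27. Gpx7 (558 nt) and Gpx2 (570 nt) lie near the short end of the bin and Gpx4 (759 nt) near the long end.

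Gpx6 lay 1.46 above the median of its bin, and 21 of the 1469 genes in the bin had a larger difference. Its coding sequence of 663 nt is close to the 678 nt of Gpx3, while the late minus early differences were 0.83 and -1.38. The reductases were longer, with 1581 nt in Txnrd2, 1839 nt in Txnrd1 and 1845 nt in Txnrd3. Txnrd1 stood at the median of its bin (0.28), Txnrd3 lay 0.43 above the same median, and Txnrd2 lay 0.34 above the median of 0.20 in its own. At 1497 nt Txnrd1 would fall in the bin of Txnrd2, from 1335 to 1587 nt.

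**Figure D4:**
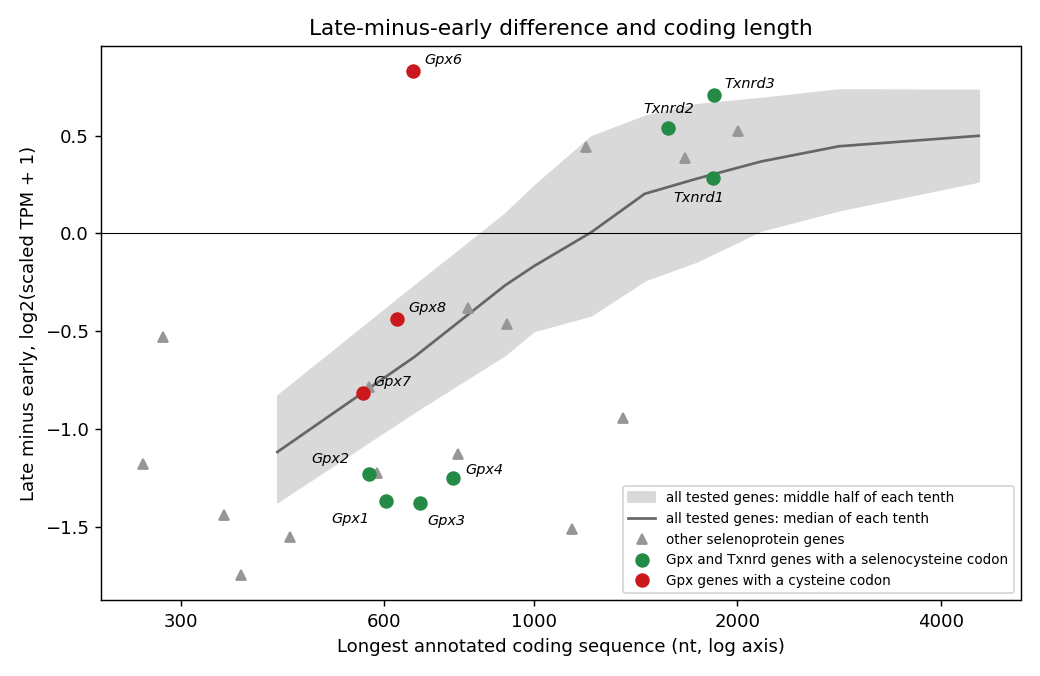
Late minus early difference in log2(scaled TPM + 1) against the longest annotated coding sequence (nt, log axis) for the members (circles) and other selenoprotein genes (triangles), with the median (line) and the quartile range (grey) of all tested genes in 10 length bins. Gpx1 to Gpx4 lie below the grey band, Gpx7 and Gpx8 within it, and Gpx6 1.46 above the median of its bin.

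The other selenoprotein genes extended the comparison. Of 24 genes annotated with a selenocysteine codon, 22 were tested, among them the 7 members, and Selenof and Selenov were not matched. In the averaged comparison 15 fell (264 to 1356 nt), 6 rose (1194 to 2001 nt) and Dio3 did not pass. Those that rose were the 3 reductases and Selenoo (0.52), Selenoi (0.44) and Selenon (0.39). The largest falls outside the peroxidases were in Selenoh (-1.75), Selenom (-1.55) and Selenop (-1.51), the last a plasma selenium carrier with 10 selenocysteine codons. Of the 15 tested genes that are not members, 11 fell and 3 rose, with a median difference of -0.95.

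The position of the first selenocysteine codon was read against the same length bins. In 13 genes it lay before 75% of the coding sequence, and all 13 were below the median of their length bin, by a median of -0.60 and from -1.52 to -0.06. These 13 included Gpx1 to Gpx4, and in the longest coding sequence of Gpx4 the codon is number 129 of 253. In the other 9 genes, the 3 reductases among them, 7 were above and 2 below, with a median of 0.15 and a range from -0.32 to 0.59. The most distant pair were Selenop (-1.52) and Sephs2 (-1.15), which have 1140 and 1356 nt of coding sequence. Their first selenocysteine codons are numbers 59 and 63. The closest to its bin median was Selenow (-0.06), whose codon is number 13 of 88. This distance is smaller than the SE of its difference (0.20), and that of Dio3 (-0.20) is smaller than its SE of 0.22. Selenow has 264 nt in a bin from 111 to 555 nt, so its length is loosely matched. The 13 genes span 264 to 1356 nt and the other 9 span 282 to 2001 nt, so the bins may not fully separate position from length. The position of 75% was chosen after the values were seen, in a gap between 55.9% (Dio3) and 76.8% (Selenon). Sephs2, Selenow and Dio3 were named for their values. The counts are a description and were not tested.

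The lists that follow were tested in a comparison that called 34.3% of all genes higher and 34.6% lower, and nothing particular to a list is read from its count. Of the factors that insert selenocysteine, 4 of 8 rose and 2 fell in late polysomes in the averaged comparison, with a median difference of 0.27, and all differences given here and for the lists that follow are on the log2(scaled TPM + 1) scale. Eefsec, the elongation factor that delivers the selenocysteine tRNA, rose by 0.63, Secisbp2l by 0.59 and Secisbp2, which binds the hairpin in selenoprotein mRNAs, by 0.47. Trnau1ap, a protein associated with the tRNA, fell by 1.00 and Pstk, the kinase that acts on the tRNA's serine, fell by 0.79. Of 14 glutathione and thioredoxin partners, 2 rose and 9 fell. Gss, which makes glutathione, rose by 1.06 and Txnip, which binds thioredoxin, by 0.63. Txn1, the cytosolic thioredoxin that Txnrd1 reduces, fell by 1.54, Txndc17 by 1.49 and Glrx2 by 1.29.

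The remaining lists hold other antioxidant genes, with the same shares over all genes. Of 10 peroxiredoxin, catalase and superoxide dismutase genes, 3 rose (Sod3 by 0.98, Cat by 0.85, Prdx1 by 0.48) and 6 fell, most of all Sod1 (-1.50), Prdx5 (-1.20) and Sod2 (-0.57). Of 9 genes of the Nrf2 pathway, which drives antioxidant enzymes and counts Txnrd1 among its known targets, 7 rose and 0 fell. The largest rises were in Pgd (1.16), Nqo1 (1.01) and Hmox1 (0.97), and their coding lengths were not matched to those of the peroxidases. Of 6 genes of lipid peroxidation, which Gpx4 opposes, Slc3a2 rose by 1.17 and Acsl4 by 0.62, Gch1 fell by 0.47, and 3 did not pass. The fall of Gch1 did not pass in 6 of the alternative fits.

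Between genotypes no member passed the test. In cKO against WT, 0 of 10 passed in early polysomes, where 0.0435% of all genes did, and 0 of 10 in late polysomes, where 0.0124% did. On the means of each lysate 0 passed, where 0.00621% of all genes did. At an unadjusted p under 0.05 there was 1 member in early polysomes (6.64% of all genes), 3 in late polysomes (9.36%) and 3 on lysate means (11.3%), and a test on the inferred reads with voom also called 0. Without WT early replicate 2 the counts in early and late polysomes were again 0. Mex3a itself fell by 2.55 in early and 2.80 in late polysomes (limma adjusted p = 0.00459 and 0.00282). The early test includes WT early replicate 2, which was kept as WT with its Mex3a level in view. The other WT early library held 97.4 TPM of Mex3a, beside 13.9 and 19.8 TPM in cKO early libraries.

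The cKO minus WT estimate was above 0 for 8 members in early and 9 in late polysomes. All come from the same 4 lysates, so members are not replicates of the genotype, and their shared direction was not tested. The median member difference was 0.18 in early and 0.10 in late polysomes, beside 0.0054 and -0.00066 over all genes tested. Early medians of other lists were 0.15 (glutathione and thioredoxin partners), 0.05 (other selenoproteins) and -0.11 (factors that insert selenocysteine). In early polysomes the cKO libraries lay above both WT libraries, on scaled TPM, for Gpx1, Gpx2, Gpx3, Gpx4 and Gpx8, which 19.6% of all genes did, and below both for Txnrd1, which 17.6% did. In late polysomes this held for Gpx3, Gpx6, Gpx7 and Gpx8, which 20.5% of all genes did, and below both there was no member, against 20.1%.

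Gpx3 had the most even difference. It was 0.33 in early (95% interval 0.03 to 0.63) and 0.30 in late polysomes (0.00 to 0.59), and 0.31 on lysate means (0.10 to 0.53; limma adjusted p = 0.368). Without WT early replicate 2 the early difference was 0.50 (adjusted p = 0.757), and without both libraries of that lysate the difference of lysate means was 0.41. Gpx7 differed by 0.38 (0.07 to 0.68) and Gpx8 by 0.34 (0.10 to 0.59) in late polysomes, with limma adjusted p-values of 0.464 and 0.417.

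For the other members the intervals included 0 in each comparison. Gpx6 differed by 0.20 in early (-0.20 to 0.60) and 0.30 in late polysomes (-0.10 to 0.70), and without WT early replicate 2 the early value was -0.03. Gpx2 had the widest interval, from -0.23 to 1.03 around 0.40 in early polysomes. Txnrd1 differed by -0.14 in early (-0.38 to 0.09) and 0.12 in late polysomes (-0.12 to 0.35). Differences over 1 on the log2 scale lay outside the late-polysome intervals of all 10 members, and outside the early intervals of all but Gpx2. Smaller ones lay within some intervals: the late interval of Txnrd1 includes 0.28, its own difference between fractions.

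**Figure D5:**
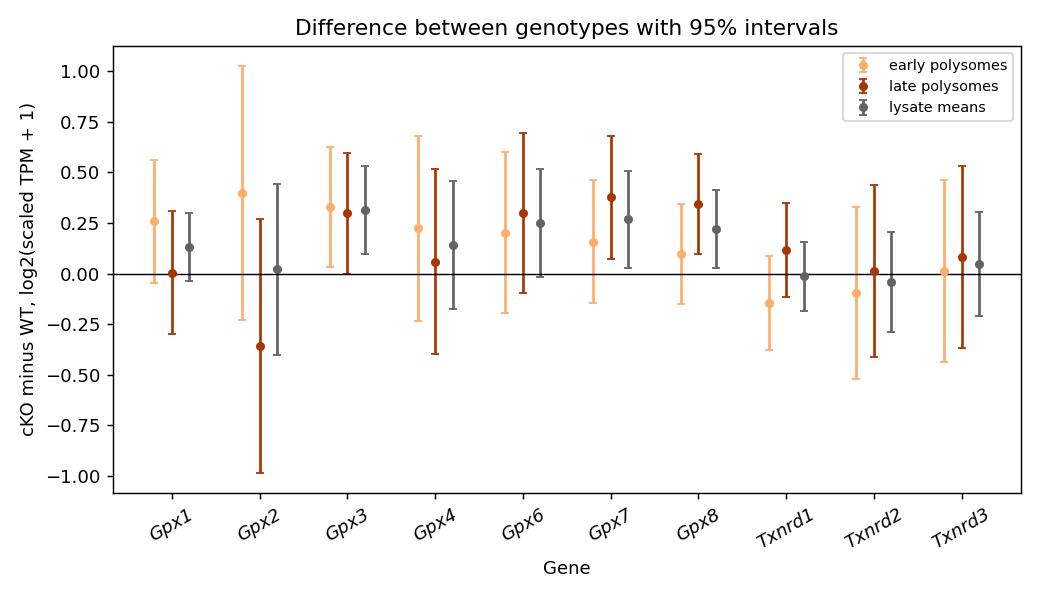
Difference between cKO and WT in log2(scaled TPM + 1) for each member, with 95% intervals, in early polysomes, late polysomes and the mean of both for each lysate. Gpx3 stood at 0.33, 0.30 and 0.31, and no member passed the test after adjustment.

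Cell type markers did not pass between genotypes either, with 0 genes called in each list. Of 12 lists the summed level of both cKO libraries lay above both WT libraries for 4 in early and 5 in late polysomes, below them for 2 and 2, and overlapped for the rest. These are sums of deposited TPM. Of all single genes, on scaled TPM, 19.6% lay above in early and 20.5% in late polysomes, and 17.6% and 20.1% lay below. In late libraries the microvillous cell sum was 89.0 to 95.3 TPM in WT and 112 to 125 TPM in cKO, with 4 of 4 genes matched. The ensheathing glia sum was 690 to 829 TPM in WT late and 571 to 596 TPM in cKO late libraries (5 of 5 genes). The sustentacular sums given above, the macrophage sum (166 to 186 TPM in WT late and 198 to 223 in cKO late) and the respiratory sum (113 to 119.8 and 135 to 136 TPM) were higher in cKO late libraries, and the immature neuron sum (1975 to 2160.0 and 1758 to 1825 TPM) was lower. The gland sum overlapped between genotypes in late polysomes. Scgb1a1, a secretory marker of respiratory epithelium, was at 0 in all late libraries. Of the red blood cell list only Alas2 was matched, at 39.0 to 48.5 TPM in WT late and 59.8 to 60.0 TPM in cKO late libraries. Their part in the member differences was not tested.

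The shift between fractions was also compared between genotypes directly. For the interaction of genotype and fraction 0 of 10 members passed, where 0.00621% of all genes did, and 0 had an unadjusted p under 0.05, where 2.85% did. The estimates ran from -0.75 in Gpx2 (95% interval -1.64 to 0.13) to 0.26 in Txnrd1. That of Gpx6 was 0.10 (-0.46 to 0.66), and that of Gpx4, the central enzyme against lipid peroxidation, was -0.17 (-0.81 to 0.48).

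The genes most like each member across the 8 libraries were named by Pearson's r of log2(scaled TPM + 1) among 12816 genes. The libraries fall into 2 fractions, so r mainly follows that split. S100a10 was closest to Gpx3 (r = 0.999) and 2410015M20Rik to Gpx1 (0.999). Mfap3l was closest to Gpx4 (0.998), Mrps34 to Gpx7 (0.998), Srp19 to Gpx2 (0.995) and Gm13580 to Gpx8 (0.982). Il4ra (0.994) and Notch1 (0.993) were closest to Gpx6, Cyfip2 to Txnrd1 (0.990), Taf3 to Txnrd2 (0.994) and Plod2 to Txnrd3 (0.990).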

How the data were processed

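RNA of early and late polysomes was sequenced in 8 libraries, and the authors deposited 1 table of TPM per gene symbol, each library summing to 1000000. Per the submitters' processing notes the build was mm10 and the tools included FastQC, cutadapt, STAR and DESeq2, without versions; how TPM was computed is not given in the sources used here. Per the labels' protocols, libraries came from a stranded total RNA kit for low input. Groups and replicate numbers follow the sample titles. The Cre line is not reported here.

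Median-ratio factors (0.931 to 1.06) brought the libraries to a common scale, and log2(scaled TPM + 1) was then fitted in limma 3.58.1 (R 4.3.3) with all 4 groups in 1 model and a trended prior variance. The 16097 genes with a mean TPM of at least 1 entered, tests were two-sided, and Benjamini-Hochberg adjustment ran over all of them in each of 7 contrasts. Genotype was also tested on the 4 lysate means. The procedure was tested on simulated data with known changes. Of 200 genes changed 3-fold between fractions, 200 were recovered in the average, with 19 false calls among 16085 genes. With no genotype change simulated, 4 to 11 genes were called between genotypes and 7 in the interaction. The real data gave 7 calls between genotypes in early polysomes, 2 in late polysomes, 1 on lysate means and 1 in the interaction. These numbers do not exceed the range of the simulated false calls. The simulation does not match the real fraction comparison, which called 68.9% of all genes. TPM values were whole multiples of a step per gene, and whole reads were inferred for 19783 genes (100% of those above 0 in at least 2 libraries, tolerance 0.001). These served for depth and for a voom alternative. Standard errors cover the spread between libraries.

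Coding lengths, selenocysteine codons, exons and sequences came from GENCODE on GRCm38, the assembly that mm10 names. Selenof was not matched, since a date stands in place of some symbols in the table. The library names tie each early library to the late library of the same lysate, so lysate was a block in an alternative fit. Across genes, the deviations of paired libraries from their group means had a correlation of 0.0862 (WT) and 0.0502 (cKO). WT and cKO libraries that share a replicate number gave 0.331 (early) and 0.142 (late), although no label says what the number marks.

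All 10 members were named, with Mex3a, up to 3 genes per direction from each list by averaged change, and the closest genes by r. The members and lists were chosen with earlier results of these data known. Alternatives were other pseudocounts, filters, scaling, no trend, voom, blocks, only the 4 libraries compared, and leaving out each library or lysate.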

Additional observations from a re-analysis of the deposited data

How the results depend on the processing

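Late against early averaged over genotypes, all 10 members passed under each alternative run, and genotype and interaction calls stayed at 0. Of 494 recomputed values of called members, 470 kept their call and direction, 24 lost the call (9 in WT, 15 in cKO) and 0 reversed. Over the fits that leave out a library or lysate, 5 to 9 members passed in WT and 7 to 10 in cKO, lowest in WT without WT early replicate 2. With lysate as a replicate block the counts were 10 in the average, 8 in WT, 10 in cKO and 0 in the interaction, and with the replicate number as a block 0 between genotypes. Without a filter on low values 6 passed in WT and 8 in cKO. Txnrd2 in WT passed in 6 alternatives, with an adjusted p of 0.0467 on the inferred reads. With 2 libraries per group, left-out fits assume that a lone library varies like the other groups. Depth limits Gpx2 most, whose averaged difference ranged from -1.44 to -1.01 over the alternatives. For Gpx6 that range was 0.71 to 0.98.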
